A study of Homo sapiens with 24 samples.

Results

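The genes described here write, read or recruit methylation of lysine 9 of histone H3 (H3K9). They were taken by name, and all 10 of them were found among the 57736 genes of the count table. The histone methyltransferases were SETDB1, SUV39H1, SUV39H2, EHMT1 and EHMT2, the corepressor was TRIM28, the HP1 (heterochromatin protein 1) genes were CBX1, CBX3 and CBX5, and the last gene was MPHOSPH8. RNA was measured in 24 libraries of U87-T, a human glioblastoma line (U87) transduced with the telomerase gene TERT. There was one series for each knockout, with its own WT libraries. Either series held WT and knockout cells, without treatment or with etoposide, and each of the 8 groups had 3 replicate libraries. The WT cells carried an empty Cas9 vector. DAXX_KO and ATRX_KO were each 1 CRISPR clone, a survivor of long passage that was positive for the alternative lengthening of telomeres, so the loss of the gene and the history of the clone cannot be told apart. Etoposide is a topoisomerase II poison that breaks DNA, and its dose and duration in the RNA experiment are not given in the sources used here.

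H3K9 methylation marks silent chromatin. SUV39H1 and SUV39H2 place the trimethyl mark on repeats near centromeres and telomeres, EHMT1 and EHMT2 (GLP and G9a) act as a pair that places the dimethyl mark on silent genes, and SETDB1 is brought to retroelements and imprinted genes by TRIM28 (KAP1), the partner of zinc finger repressors. The 3 HP1 proteins, alpha (CBX5), beta (CBX1) and gamma (CBX3), bind the methylated lysine, and MPHOSPH8 binds it as a subunit of the HUSH silencing complex. The DAXX-ATRX complex deposits histone variant H3.3 at telomeres and at other heterochromatin that carries the mark.

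Library totals ranged from 6928950 to 13298557 counts, and 3 counts were worth 0.226 to 0.433 CPM (the read count relative to the library total, normalised by TMM within each series). The targeted transcripts followed the sample titles. DAXX stood at 33.9 ± 1.24 CPM (SD, n = 3) in WT and 5.83 ± 1.06 CPM in DAXX_KO (adjusted p = 7.34e-11 by edgeR), and ATRX at 192 ± 4.63 CPM in WT and 80.6 ± 6.08 CPM in ATRX_KO (adjusted p = 9.38e-09). One tag of the DAXX_KO samples gives the genotype as ATRX KO, but their ATRX level, 386 ± 25.7 CPM, was above that of their WT libraries at 229 ± 14.2 CPM, so the titles were used. VIM, CD44, NES and TNC were present in all 24 libraries, SOX2 reached at most a group mean of 4.27 CPM, and the astrocyte marker GFAP stayed at 0.0751 to 0.249 CPM. The blood marker PTPRC stayed at or below a group mean of 1.26 CPM, the epithelial marker EPCAM at or below 1.72 CPM, and HBB had 0 counts in 24 libraries, which allows up to 0.433 CPM in the shallowest of them, while KRT8 reached 26.2 CPM and COL1A1 436 CPM.

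Without treatment CBX3 and CBX5 were the most abundant of the 10 genes, while in WT with etoposide TRIM28 had the highest mean, at 198 CPM in the DAXX series and 253 CPM in the other. QuantSeq reads come from the 3′ ends of polyadenylated transcripts, about 1 tag for a transcript, so counts were not divided by transcript length. In WT cells of the DAXX series without treatment, CBX3 stood at 569 CPM, CBX5 at 311, TRIM28 at 186 and CBX1 at 175. MPHOSPH8 at 51.6 and EHMT1 at 45.2 followed, then EHMT2 at 24.2, SETDB1 at 20.6, SUV39H1 at 18.9 and SUV39H2 at 8.20 CPM. TRIM28 and CBX1 overlapped in their library values, as did MPHOSPH8 and EHMT1, and SETDB1 overlapped with SUV39H1. The lowest count of any of the 10 genes in any library was 16, for SUV39H2 in DAXX_KO with etoposide, and all 10 passed the filter on low counts in both series. Counts of SETDB1 are uncertain because its last exon overlaps an exon of CERS2 on the opposite strand, which held 19229 counts against 5726 for SETDB1, and the strand setting of the counting is not given in the sources used here. Pseudogenes took few counts, with 82 over 10 pseudogenes of CBX3 against 96487 for the gene itself, 27 for 1 pseudogene of CBX5 and 5 for 5 pseudogenes of CBX1.

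**Figure D1:**
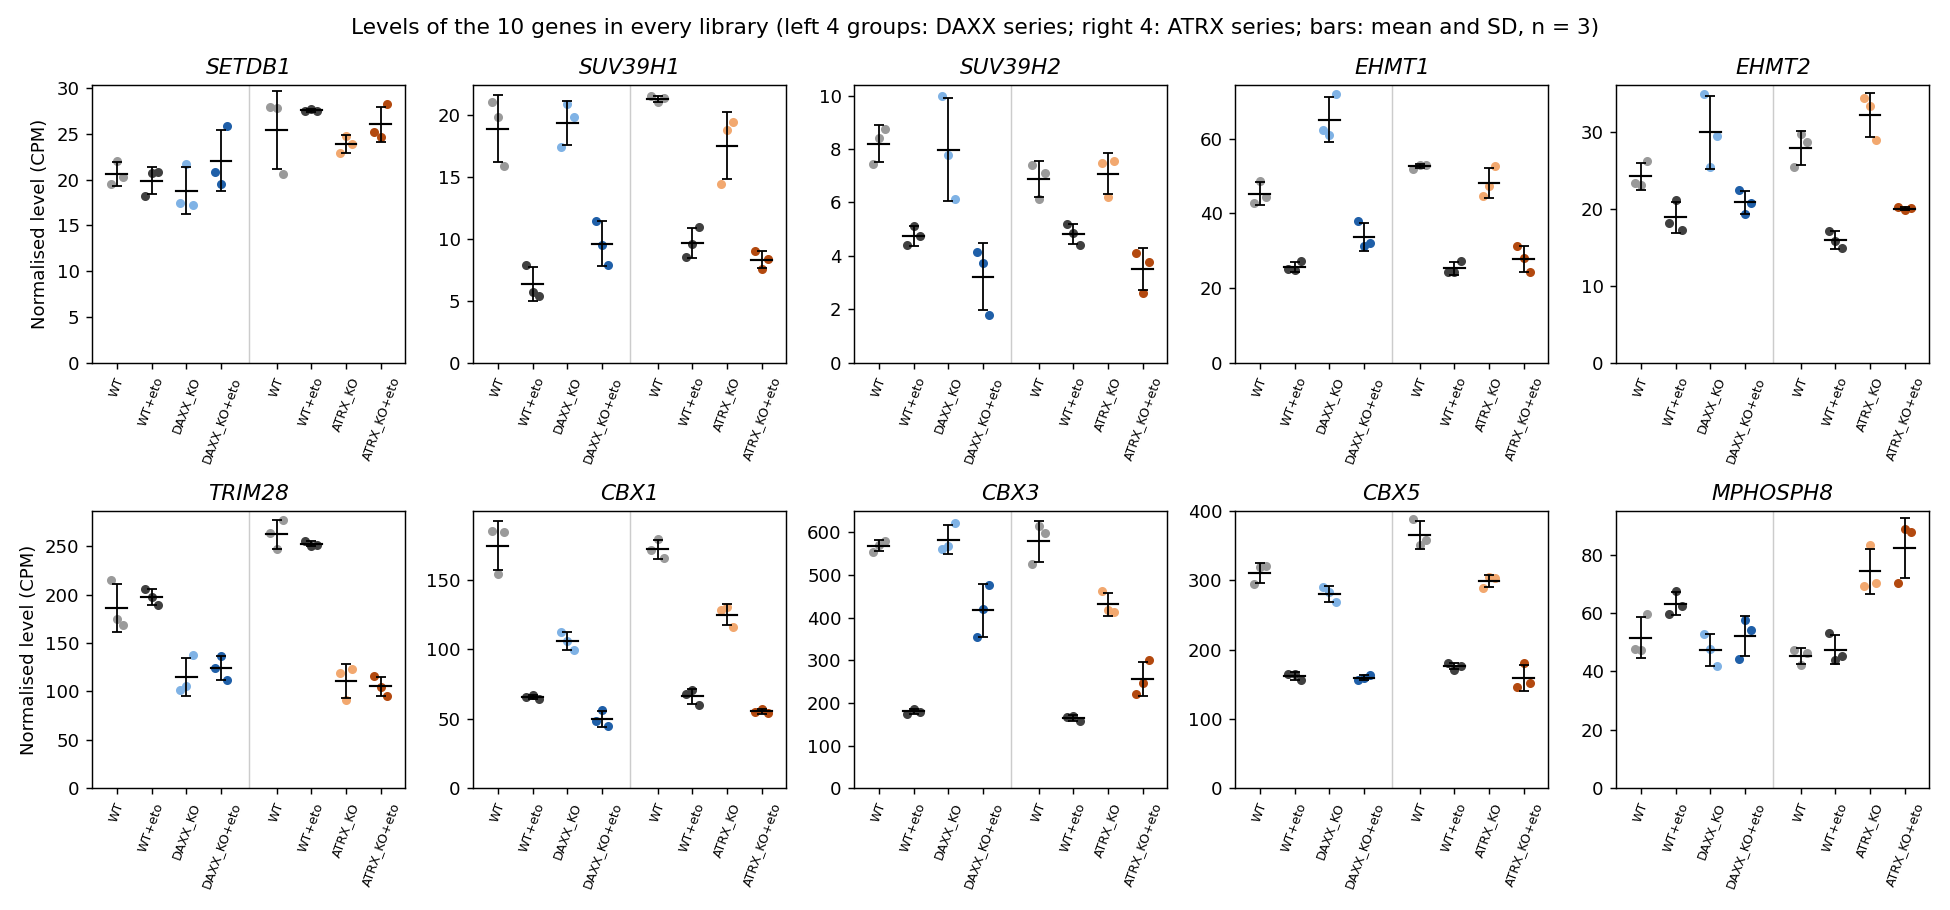
Normalised level (CPM, linear axes from 0) of each of the 10 genes in all 24 libraries, with points for libraries and bars for the mean and SD of 3 libraries. With etoposide CBX3 lay at 157 to 186 CPM in the WT libraries and at 222 to 477 CPM in the knockout libraries, TRIM28 was lower in both knockouts with or without etoposide, and MPHOSPH8 was higher in ATRX_KO than in its WT.

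In each knockout without treatment 5 of the 10 genes differed from WT. A gene was called when its adjusted p (Benjamini-Hochberg over all genes tested) was under 0.05 in edgeR's quasi-likelihood test. In DAXX_KO without treatment, EHMT1 and EHMT2 were called higher than in WT and TRIM28, CBX1 and CBX5 lower, which is 2 of 10 higher against a background of 26.7% of all 15247 genes tested and 3 of 10 lower against 26.6%. In ATRX_KO without treatment, MPHOSPH8 was called higher and TRIM28, CBX1, CBX3 and CBX5 lower, which is 1 of 10 against 20.8% of 16371 genes and 4 of 10 against 21%. With etoposide, DAXX_KO had SUV39H1, EHMT1 and CBX3 higher and TRIM28, CBX1 and MPHOSPH8 lower, 3 of 10 against 27.9% and 3 of 10 against 25.2%. ATRX_KO with etoposide had EHMT2, CBX3 and MPHOSPH8 higher and TRIM28 and CBX1 lower, 3 of 10 against 23% and 2 of 10 against 22.9%. These shares lie near the background. The median absolute log2 fold change of the 10 genes without treatment was 0.14 in DAXX_KO, against 0.44 over all genes, and 0.29 in ATRX_KO, against 0.36. With etoposide it was 0.39 in DAXX_KO, against 0.44, and 0.30 in ATRX_KO, against 0.40. The medians over all genes were not matched to the 10 genes for expression level.

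**Figure D2:**
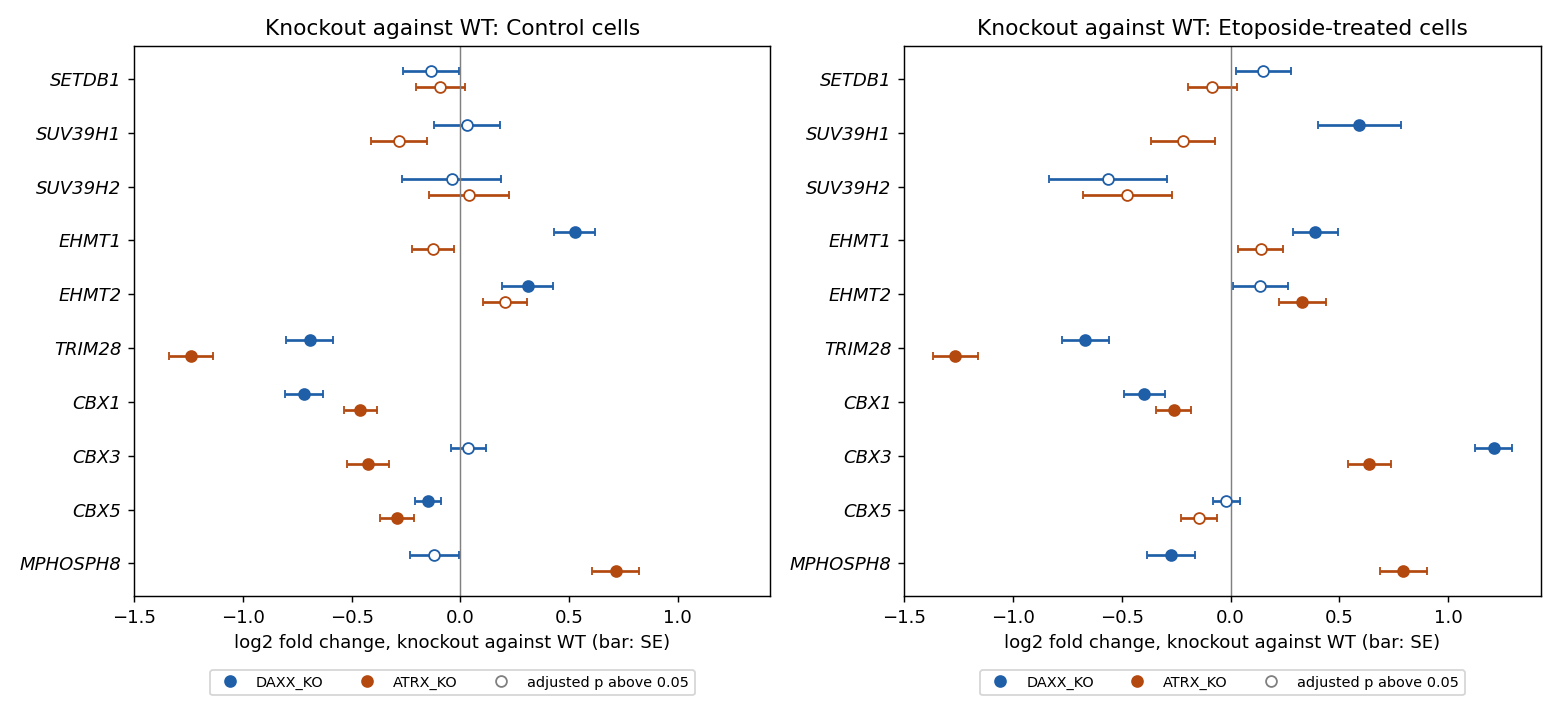
Log2 fold change of each gene in DAXX_KO (blue) and ATRX_KO (orange) against the WT cells of the same series, without treatment on the left and with etoposide on the right, with bars of 1 SE and filled points for adjusted p under 0.05. TRIM28 was called lower in all 4 comparisons, and CBX3 was called higher in both knockouts with etoposide, at 1.21 in DAXX_KO and 0.64 in ATRX_KO.

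Etoposide lowered most of the 10 genes. Among WT cells, 7 of 10 genes were lower with etoposide for the DAXX series, against a background of 30.6%, and 7 of 10 for the ATRX series, against 29.8%. MPHOSPH8 was called higher in WT of the DAXX series, 1 of 10 against 29.6%, and 0 of 10 were higher in WT of the ATRX series, against 31.7%. In DAXX_KO 7 of 10 were lower against 27.8% and 0 of 10 higher against 26.8%, and in ATRX_KO 7 of 10 were lower against 25.2% and 0 of 10 higher against 24.3%. For each of these 3 counts of 0, edgeR gave 0 genes at an unadjusted p under 0.05 and DESeq2 called 0. As a check on shifts of whole chromosome regions, each gene was also centred on the median level of up to 30 tested genes on each side of it. Centred in this way, MPHOSPH8 was called higher with etoposide in DAXX_KO (0.36, adjusted p = 0.0263) and in WT of the ATRX series (0.33, adjusted p = 0.0451), where the counts of 0 became 1. The genes SUV39H1, SUV39H2, EHMT1, EHMT2, CBX1, CBX3 and CBX5 were called lower in each of the 4 responses. Of the 15039 genes tested in both series, 18.6% were called lower in all 4. Treated libraries of these 7 genes also lay below all untreated libraries each time, but the share of all genes that did so was not counted. For the 10 genes the median log2 fold change in WT was -0.80 (DAXX series) and -0.93 (ATRX series), beside medians of 0.02 and 0.07 over all genes.

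Proliferation genes moved with this fall. Of 22 such genes, all tested (MKI67, TOP2A, PCNA, MCM2 to MCM7, CCNA2, CCNB1, CCNE2, CDK1, BUB1, AURKB, PLK1, TYMS, RRM2, E2F1, FOXM1, CDC20 and CDC6), 21 were lower with etoposide in WT of the DAXX series (median log2 fold change -2.48), 20 in WT of the ATRX series (-2.23), 19 in DAXX_KO (-2.30) and 21 in ATRX_KO (-2.22), beside the backgrounds of 30.6%, 29.8%, 27.8% and 25.2%. Without treatment 18 of the 22 were lower in DAXX_KO (median -0.44, background 26.6%) and 15 in ATRX_KO (-0.35, background 21%). Their interaction of knockout and treatment in the DAXX series was called above 0 for 9 and below 0 for 1 (median 0.27, backgrounds 8.38% and 5.79%). In the other series it was called above 0 for 4 and below 0 for 3 (median 0.09, backgrounds 8.36% and 7.64%). Their part in the changes of the H3K9 genes was not tested, and in bulk RNA fewer cells that express a gene and less RNA per cell cannot be told apart.

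**Figure D3:**
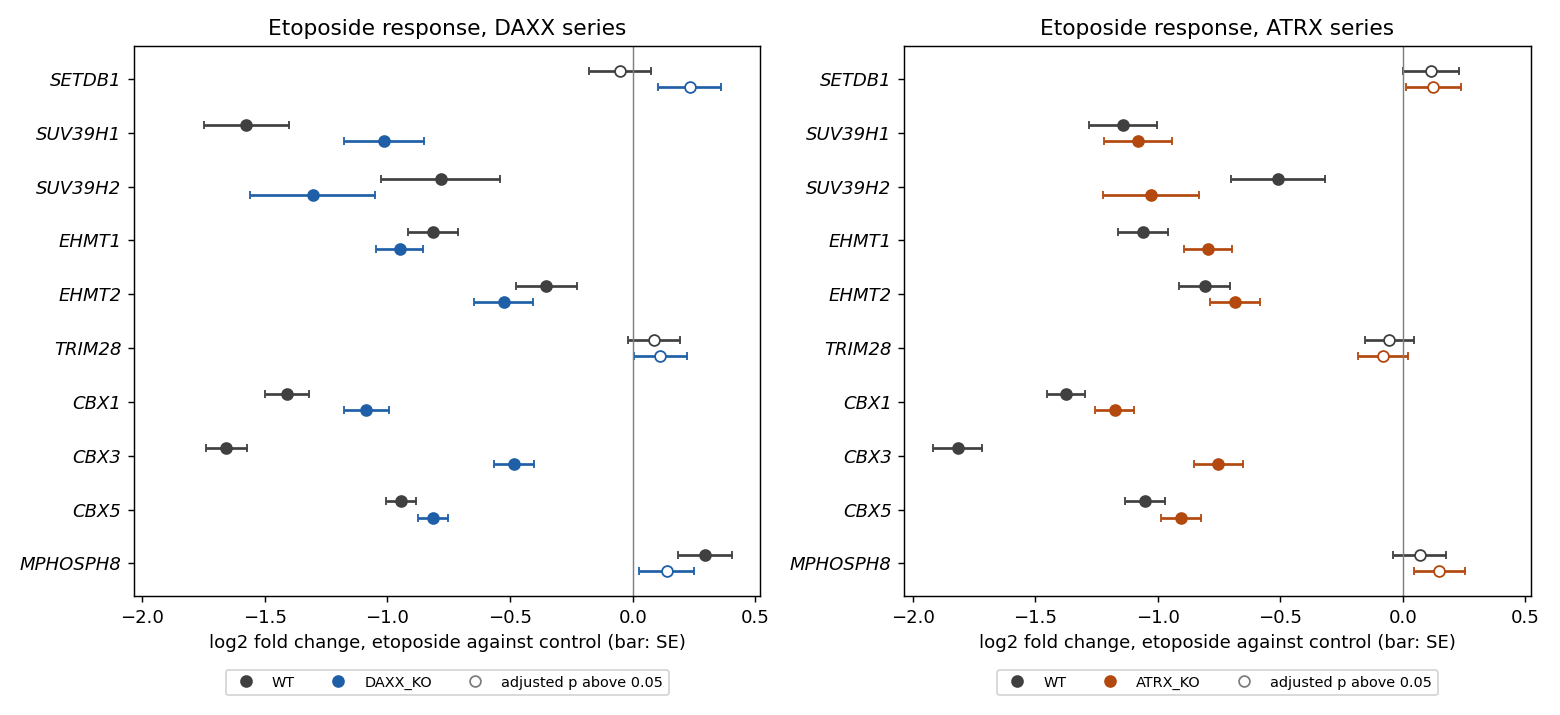
Log2 fold change with etoposide against no treatment in WT (grey) and knockout cells (blue, DAXX_KO; orange, ATRX_KO) of the DAXX series (left) and the ATRX series (right), with bars of 1 SE and filled points for adjusted p under 0.05. The WT and knockout points of CBX3 lie more than 1 log2 unit apart in both series, while SETDB1 and TRIM28 have open points in all 4 responses.

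CBX3, which encodes HP1 gamma (ENSG00000122565, chr7:26240782-26253227, plus strand, GRCh37), fell with etoposide in WT and kept much of its level in the knockouts. In WT of the DAXX series its libraries read 555, 571 and 581 CPM without treatment and 175, 186 and 180 CPM with etoposide. The DAXX_KO libraries read 561, 568 and 621 CPM without treatment and 355, 420 and 477 CPM with etoposide. Untreated WT and DAXX_KO libraries overlapped, while with etoposide every DAXX_KO library lay above every WT library.

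The fall of CBX3 was 3.15-fold in WT (log2 fold change -1.66 ± 0.08, SE, adjusted p = 1.96e-12) and 1.40-fold in DAXX_KO (-0.48 ± 0.08, adjusted p = 4.01e-05). The difference of these responses, the interaction of knockout and treatment, was 1.17 ± 0.11 on the log2 scale (adjusted p = 1.81e-06). With etoposide CBX3 was 2.31-fold higher in DAXX_KO than in WT (1.21 ± 0.08, adjusted p = 5.04e-10). Centred on neighbouring genes, whose median there was 0.56, this value was 0.55 (adjusted p = 0.000143), and the response of DAXX_KO was -0.26 (adjusted p = 0.0317).

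ATRX_KO gave the same direction of difference. The WT libraries of that series read 525, 615 and 599 CPM without treatment and 168, 168 and 157 CPM with etoposide, and the ATRX_KO libraries read 463, 419 and 413 CPM and then 222, 246 and 301 CPM. Untreated ATRX_KO libraries were all below untreated WT libraries (log2 fold change -0.43 ± 0.10, adjusted p = 0.00206), and with etoposide all were above (0.64 ± 0.10, adjusted p = 5.62e-05). The value with etoposide was 0.29 when centred on neighbouring genes (adjusted p = 0.031). The fall was 3.52-fold in WT (-1.82 ± 0.10, adjusted p = 1.20e-10) and 1.68-fold in ATRX_KO (-0.75 ± 0.10, adjusted p = 7.52e-06), with an interaction of 1.06 ± 0.14 (adjusted p = 0.000102).

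CBX3 was the only one of the 10 genes with a called interaction in either series. That is 1 of 10 genes above 0 in the DAXX series, against a background of 8.38%, and 0 of 10 below 0, against 5.79%, and in the ATRX series 1 of 10 against 8.36% and 0 of 10 against 7.64%. Both counts of 0 were also 0 at an unadjusted p under 0.05 in edgeR and 0 with DESeq2. Centred on neighbouring genes, the interaction of CBX3 was 1.11 in the DAXX series (adjusted p = 2.06e-05) and 0.91 for the ATRX series (adjusted p = 0.000508). That centring brought a second call in the DAXX series, CBX5 at 0.41 (adjusted p = 0.00509), which was 0.13 (adjusted p = 0.364) without it, and the untreated DAXX_KO value of CBX3, 0.04 without a call, became -0.57 (adjusted p = 7.46e-05) beside a median of 0.54 for its neighbours. That untreated value of CBX3 was called higher with library totals alone (0.22, adjusted p = 0.0213). Leaving out WT control replicate 2 or DAXX_KO etoposide replicate 3 added CBX1 to the interactions of the DAXX series, at 0.40 in either case, from 0.32 (adjusted p = 0.104) with all libraries.

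CBX1, which encodes HP1 beta (ENSG00000108468, chr17:46147414-46178840, minus strand), was lower in both knockouts and fell with etoposide everywhere. Without treatment the WT libraries of the DAXX series read 185, 154 and 185 CPM and the DAXX_KO libraries 112, 106 and 99.8 CPM. The WT libraries of the ATRX series read 171, 179 and 166 CPM and the ATRX_KO libraries 128, 131 and 116 CPM. Neither pair of groups overlapped. The log2 fold change was -0.72 ± 0.09 in DAXX_KO (adjusted p = 9.00e-07) and -0.46 ± 0.08 in ATRX_KO (adjusted p = 0.000117). These became, when centred on neighbouring genes, -0.37 (adjusted p = 0.00782) and -0.23 (adjusted p = 0.0319), beside neighbour medians of -0.36 and -0.30.

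With etoposide CBX1 dropped to 65.8, 67.3 and 64.4 CPM in WT of the DAXX series and to 48.2, 56.6 and 44.9 CPM in DAXX_KO. In the ATRX series it dropped to 68.0, 70.8 and 60.2 CPM in WT and to 54.8, 57.2 and 54.1 CPM in ATRX_KO. Treated knockout libraries again lay below treated WT libraries, by 0.40 ± 0.09 log2 units in DAXX_KO (adjusted p = 0.00152) and by 0.26 ± 0.08 in ATRX_KO (adjusted p = 0.0135). Centred on neighbouring genes these values with etoposide became 0.02 (adjusted p = 0.885) and -0.08 (adjusted p = 0.48), and the ATRX_KO call was also lost with library totals alone (-0.16, adjusted p = 0.11) and without WT etoposide replicate 1 or 2 of that series. The etoposide responses of CBX1 lay between -1.41 ± 0.09 in WT of the DAXX series and -1.09 ± 0.09 in DAXX_KO.

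CBX5, which encodes HP1 alpha (ENSG00000094916, chr12:54624726-54673917, minus strand), fell with etoposide in both genotypes. Its libraries read 294, 319 and 320 CPM in untreated WT of the DAXX series and 164, 165 and 155 CPM with etoposide. DAXX_KO read 290, 283 and 268 CPM and then 156, 158 and 164 CPM. The fall was 0.94 ± 0.06 log2 units in WT (adjusted p = 1.00e-10) and 0.81 ± 0.06 in DAXX_KO (adjusted p = 1.51e-09). In the ATRX series the group means fell from 366 ± 19.9 to 176 ± 4.91 CPM in WT (log2 fold change -1.05 ± 0.08, adjusted p = 7.04e-09) and from 299 ± 8.82 to 159 ± 18.7 CPM in ATRX_KO (-0.91 ± 0.08, adjusted p = 9.43e-08).

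Untreated CBX5 was lower than in WT by 0.15 ± 0.06 log2 units in DAXX_KO (adjusted p = 0.0443) and by 0.29 ± 0.08 in ATRX_KO (adjusted p = 0.00745). The DAXX_KO value did not pass without WT control replicate 2 or 3, without DAXX_KO control replicate 2 or 3, or with a replicate block (adjusted p = 0.0689), and with library totals alone it was 0.04 (adjusted p = 0.621), while centred on neighbouring genes it was -0.36 (adjusted p = 0.000121). The same value also missed the threshold without a filter on low counts (adjusted p = 0.0665). With at least 10 counts in every library its adjusted p was 0.0568, and with all 24 libraries in one model 0.0744. The ATRX_KO value did not pass without WT control replicate 1 of that series (-0.24, adjusted p = 0.0507). With etoposide CBX5 was not called in ATRX_KO against WT (-0.15, adjusted p = 0.157), except without ATRX_KO etoposide replicate 2 (-0.24, adjusted p = 0.0199).

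The make-up of the HP1 counts differed accordingly. CBX3 held 54.0% ± 0.65 (SD, n = 3) of the counts of the 3 HP1 genes in untreated WT of the DAXX series and 44.2% ± 0.94 with etoposide. In DAXX_KO its share went from 60.1% ± 2.38 to 66.4% ± 3.06. In WT of the ATRX series it went from 51.8% ± 2.96 to 40.4% ± 0.59, and in ATRX_KO from 50.4% ± 1.94 to 54.25% ± 4.49. In both series all treated WT libraries had a lower CBX3 share than all untreated WT libraries, and the mean share of treated knockout libraries was above that of untreated ones, while the share of CBX5 was 29.5% ± 1.04 without and 39.6% ± 0.87 with etoposide in WT of the DAXX series, and 28.9% ± 1.59 and 25.6% ± 2.09 in DAXX_KO. CBX1 took 16.6% ± 1.61 of the counts in untreated WT of the DAXX series, 11.0% ± 0.80 in untreated DAXX_KO and 8.03% ± 1.29 in DAXX_KO with etoposide. In the ATRX series CBX1 took 15.4% ± 0.56 in untreated WT, 14.6% ± 0.68 in untreated ATRX_KO and 11.8% ± 1.15 in ATRX_KO with etoposide. CBX5 there went from 32.8% ± 2.69 to 43.3% ± 1.57 in WT and from 35.0% ± 1.91 to 33.9% ± 3.70 in ATRX_KO. Untreated and treated ATRX_KO libraries overlapped in their CBX3 share, at 49.05% to 52.65% and 50.87% to 59.34%. The shares were not tested separately from the genes.

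**Figure D4:**
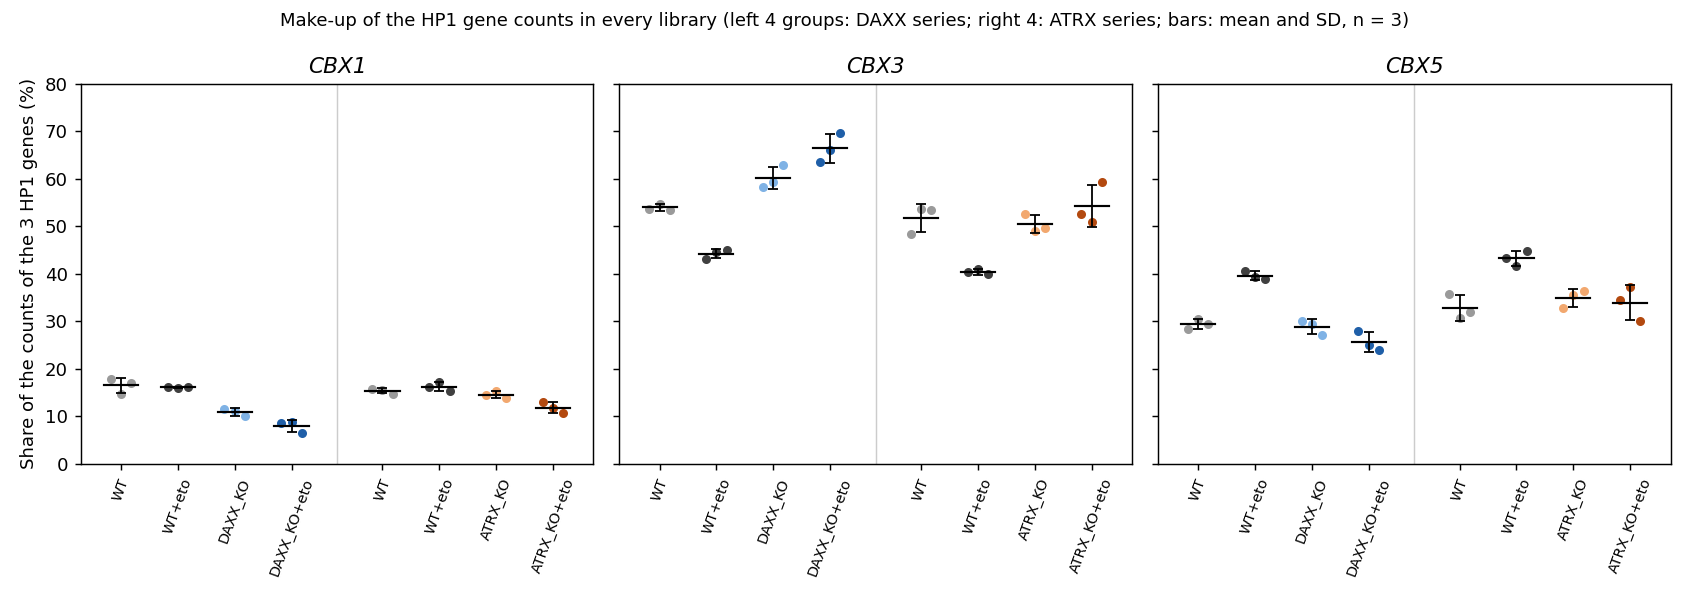
Share of each HP1 gene in the summed counts of CBX1, CBX3 and CBX5 (percent, linear axis from 0) in all 24 libraries, with bars for the mean and SD of 3 libraries. With etoposide the CBX3 share of the WT libraries sat at 39.9% to 45% and that of the knockout libraries at 50.9% to 69.5%.

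TRIM28 (ENSG00000130726, chr19:59055431-59062089, plus strand) was lower in both knockouts, with or without etoposide. The untreated WT libraries of the DAXX series read 215, 175 and 169 CPM, and the DAXX_KO libraries 102, 106 and 137 CPM. With etoposide they read 206, 198 and 190 CPM in WT and 124, 137 and 112 CPM in DAXX_KO. Knockout and WT libraries did not overlap under either condition. TRIM28 was lower by 0.69 ± 0.11 log2 units without treatment (adjusted p = 1.98e-05) and by 0.67 ± 0.11 with etoposide (adjusted p = 2.96e-05).

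In the ATRX series TRIM28 was lower in the knockout as well. WT libraries read 264, 247 and 277 CPM without treatment and 256, 250 and 252 CPM with etoposide, and ATRX_KO libraries read 119.5, 90.9 and 123.1 CPM and then 116, 104 and 95.4 CPM. The groups were far apart, by -1.24 ± 0.10 log2 units without treatment (adjusted p = 4.57e-08) and -1.27 ± 0.10 with etoposide (adjusted p = 3.61e-08). The WT libraries of this series were also above those of the DAXX series, whose levels were normalised separately.

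With all libraries TRIM28 did not pass the test in any of the 4 etoposide responses, and without DAXX_KO control replicate 3 it was called higher in DAXX_KO (0.26, adjusted p = 0.0428). The 95% interval of its log2 response ran from -0.12 to 0.29 in WT of the DAXX series, from -0.10 to 0.33 in DAXX_KO, from -0.25 to 0.14 in WT of the ATRX series and from -0.28 to 0.12 in ATRX_KO. Centred on neighbouring genes, which rose by a median of 0.34 and 0.36 in the WT responses, TRIM28 was lower with etoposide in WT of the DAXX series (-0.31, adjusted p = 0.0225) and of the ATRX series (-0.39, adjusted p = 0.0106).

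MPHOSPH8 (ENSG00000196199, chr13:20207799-20247581, plus strand) was higher in ATRX_KO. The WT libraries of the ATRX series read 47.4, 42.2 and 46.2 CPM without treatment and 53.2, 43.9 and 45.2 CPM with etoposide, and the ATRX_KO libraries read 69.4, 83.2 and 70.3 CPM and then 70.4, 88.7 and 87.6 CPM. Every ATRX_KO library lay above every WT library, with a log2 fold change of 0.71 ± 0.11 without treatment (adjusted p = 4.27e-05) and 0.79 ± 0.11 with etoposide (adjusted p = 1.24e-05). In the DAXX series the untreated libraries overlapped, at 47.6, 47.4 and 59.8 CPM in WT and 52.7, 47.6 and 41.9 CPM in DAXX_KO.

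With etoposide MPHOSPH8 read 59.7, 67.5 and 62.3 CPM in WT of the DAXX series and 44.3, 57.6 and 54.3 CPM in DAXX_KO, a log2 fold change of -0.28 ± 0.11 (adjusted p = 0.0426). This call was lost with a replicate block (adjusted p = 0.0511), with library totals alone (-0.20, adjusted p = 0.126) and with all 24 libraries in one model (-0.27, adjusted p = 0.0622). It was also lost in 5 of the 6 fits that left out 1 library, namely all but the one without DAXX_KO etoposide replicate 2. The rise of MPHOSPH8 with etoposide in WT of the DAXX series (0.29 ± 0.11, adjusted p = 0.0275) was lost without WT control replicate 1 or 2 or WT etoposide replicate 2 or 3, and was larger when centred on neighbouring genes (0.62, adjusted p = 0.000293).

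The SUV39H pair fell with etoposide in both genotypes. SUV39H1 (ENSG00000101945, chrX:48553945-48567407, plus strand) read 21.0, 19.8 and 15.9 CPM in untreated WT of the DAXX series and 7.91, 5.71 and 5.40 CPM with etoposide. In DAXX_KO it read 17.4, 20.8 and 19.9 CPM and then 11.5, 9.53 and 7.84 CPM. Untreated groups overlapped, and treated groups overlapped by 1 library. The fall was 1.58 ± 0.18 log2 units in WT (adjusted p = 2.10e-07) and 1.01 ± 0.16 in DAXX_KO (adjusted p = 3.00e-05), and the interaction, 0.56 ± 0.24, did not pass (adjusted p = 0.137).

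With etoposide SUV39H1 was higher in DAXX_KO than in WT by 0.59 ± 0.19 log2 units (adjusted p = 0.0127). The call was lost centred on neighbouring genes (0.21, adjusted p = 0.393) and without WT etoposide replicate 2 or 3 or DAXX_KO etoposide replicate 1. In the ATRX series SUV39H1 fell from 21.3 ± 0.25 to 9.67 ± 1.22 CPM in WT (log2 fold change -1.14 ± 0.14, adjusted p = 1.74e-06) and from 17.5 ± 2.69 to 8.32 ± 0.70 CPM in ATRX_KO (-1.08 ± 0.14, adjusted p = 6.28e-06). Untreated ATRX_KO libraries of SUV39H1 all lay below WT without passing (adjusted p = 0.0938), and centred on neighbouring genes the value was -0.42 (adjusted p = 0.0204).

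SUV39H2 (ENSG00000152455, chr10:14920819-14946314, plus strand), the paralog of SUV39H1, had the lowest level of the 10 genes. It read 7.43, 8.40 and 8.77 CPM in untreated WT of the DAXX series and 4.39, 5.12 and 4.73 CPM with etoposide, against 9.996, 7.78 and 6.14 CPM and then 4.14, 3.73 and 1.79 CPM in DAXX_KO. Untreated groups overlapped, and treated DAXX_KO libraries all lay below treated WT libraries without passing the test (-0.56, adjusted p = 0.09). That value was called when centred on neighbouring genes (-1.075, adjusted p = 0.00279) and without DAXX_KO etoposide replicate 1 (-0.76, adjusted p = 0.045). Treated ATRX_KO libraries also lay below treated WT libraries (-0.48, adjusted p = 0.0678), with a call without ATRX_KO etoposide replicate 1 (-0.60, adjusted p = 0.0387). The fall was 0.78 ± 0.24 log2 units in WT (adjusted p = 0.00884) and 1.31 ± 0.25 in DAXX_KO (adjusted p = 0.000225), and in the ATRX series 0.51 ± 0.19 in WT (adjusted p = 0.0303) and 1.03 ± 0.20 in ATRX_KO (adjusted p = 0.000329).

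The WT falls of SUV39H2 did not pass when centred on neighbouring genes, at -0.51 (adjusted p = 0.0834) in the DAXX series and -0.35 (adjusted p = 0.154) in the ATRX series. The one in the ATRX series also missed the threshold without WT control replicate 1 or 3, without WT etoposide replicate 2 or 3, and with 2 other filters on low counts (adjusted p = 0.0502 in each).

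EHMT1 (ENSG00000181090, chr9:140513444-140764468, plus strand) was higher in DAXX_KO. Its untreated libraries read 42.7, 48.7 and 44.3 CPM in WT and 62.2, 61.0 and 72.0 CPM in DAXX_KO, and the treated libraries read 25.0, 24.9 and 27.3 CPM and 38.0, 31.2 and 32.0 CPM. Neither pair of groups overlapped. The log2 fold change was 0.53 ± 0.09 without treatment (adjusted p = 8.65e-05) and 0.39 ± 0.10 with etoposide (adjusted p = 0.00369).

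The genes around EHMT1, near the end of the long arm of chromosome 9, were higher as well. Over up to 30 genes on each side, the median DAXX_KO effect was 0.95 log2 units without treatment and 1.16 with etoposide. Centred on them, EHMT1 was lower in DAXX_KO, by 0.35 (adjusted p = 0.00657) without treatment and by 0.65 (adjusted p = 6.35e-05) with etoposide. The part of these neighbours in the EHMT1 result was not tested. In ATRX_KO the untreated libraries of EHMT1 overlapped with WT, at 44.6, 47.2 and 52.6 CPM against 51.9, 53.0 and 52.8 CPM, and the neighbours had a median of -0.06.

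EHMT1 fell with etoposide by 0.82 ± 0.10 log2 units in WT of the DAXX series (adjusted p = 9.29e-07), 0.95 ± 0.10 in DAXX_KO (adjusted p = 7.41e-08), 1.06 ± 0.10 in WT of the ATRX series (adjusted p = 9.88e-08) and 0.80 ± 0.10 in ATRX_KO (adjusted p = 4.41e-06). Its genomic neighbours went the other way, with medians from 0.19 to 0.54 in the 4 responses.

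EHMT2 (ENSG00000204371, chr6:31847536-31865475, minus strand), the partner of EHMT1, had smaller changes. In the DAXX series it read 23.3, 23.1 and 26.2 CPM in untreated WT and 34.9, 25.5 and 29.5 CPM in untreated DAXX_KO, which overlapped. The log2 fold change of 0.31 ± 0.12 (adjusted p = 0.0344) did not pass with DESeq2 (0.27, adjusted p = 0.102), with RLE size factors (adjusted p = 0.0625), without a filter on low counts (adjusted p = 0.0679) or without WT control replicate 1 or 2 or DAXX_KO control replicate 1 or 3, and centred on neighbouring genes it was -0.04 (adjusted p = 0.795). In untreated ATRX_KO the EHMT2 value of 0.21 (adjusted p = 0.108) was called with library totals alone (0.27, adjusted p = 0.0398) and without ATRX_KO control replicate 3 (0.28, adjusted p = 0.0416). In ATRX_KO with etoposide EHMT2 stood at 20.02 ± 0.21 CPM against 15.9 ± 1.13 CPM in WT (log2 fold change 0.33 ± 0.11, adjusted p = 0.0183), a call lost without WT etoposide replicate 3 of that series (adjusted p = 0.0542).

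The etoposide responses of EHMT2 were -0.35 ± 0.12 in WT of the DAXX series (adjusted p = 0.0199), -0.53 ± 0.12 in DAXX_KO (adjusted p = 0.00102), -0.81 ± 0.11 in WT of the ATRX series (adjusted p = 4.07e-06) and -0.68 ± 0.10 in ATRX_KO (adjusted p = 2.73e-05). The first of these was lost without WT control replicate 3 or WT etoposide replicate 1 or 3, and with at least 10 counts asked of every library (adjusted p = 0.0532). The responses of the DAXX series were larger when centred on neighbouring genes, at -0.68 in WT (adjusted p = 9.27e-05) and -0.86 in DAXX_KO (adjusted p = 4.68e-06). The centred WT response of the ATRX series was larger too, at -1.17 (adjusted p = 5.42e-08).

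SETDB1 (ENSG00000143379, chr1:150898739-150937220, plus strand) passed edgeR's test in 0 of the 12 comparisons, at an adjusted p of 0.134 or more, with 0 of 12 at an unadjusted p under 0.05 and 0 called by DESeq2. Without DAXX_KO control replicate 2 its rise with etoposide in DAXX_KO was called (0.35, adjusted p = 0.0457), and centred on neighbouring genes it was higher in DAXX_KO than in WT with etoposide (0.34, adjusted p = 0.0421). Its group means ran from 18.8 ± 2.56 CPM in untreated DAXX_KO to 22.1 ± 3.33 CPM in DAXX_KO with etoposide in the DAXX series and from 23.9 ± 0.94 to 27.6 ± 0.16 CPM in the ATRX series, and libraries overlapped in all 8 comparisons of 2 groups. The 95% interval of the knockout effect without treatment ran from -0.39 to 0.12 on the log2 scale in DAXX_KO and from -0.32 to 0.13 in ATRX_KO, so a change of the size seen in TRIM28 lies outside both. The overlap with CERS2 applies to these values.

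The 2 knockouts were compared in a model of all 24 libraries, where the effect of ATRX_KO was subtracted from that of DAXX_KO. Without treatment EHMT1 (0.66 ± 0.13, adjusted p = 0.000381), TRIM28 (0.55 ± 0.16, adjusted p = 0.00842) and CBX3 (0.47 ± 0.13, adjusted p = 0.00737) had the higher value in DAXX_KO and MPHOSPH8 (-0.83 ± 0.17, adjusted p = 0.000280) the lower, which is 3 of 10 against a background of 17% of 16674 genes and 1 of 10 against 17.2%. With etoposide SUV39H1 (0.79 ± 0.24, adjusted p = 0.0125), TRIM28 (0.58 ± 0.16, adjusted p = 0.00572) and CBX3 (0.55 ± 0.14, adjusted p = 0.00229) were higher and MPHOSPH8 (-1.09 ± 0.16, adjusted p = 9.16e-06) lower, 3 of 10 against 17.7% and 1 of 10 against 16.8%.

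Centred on neighbouring genes, MPHOSPH8 kept its difference without treatment (-0.94, adjusted p = 0.000707) and with etoposide (-1.109, adjusted p = 0.000101), and EHMT1 (-0.58, adjusted p = 0.0042) and EHMT2 (-0.47, adjusted p = 0.0382) were called lower with etoposide. Under that centring TRIM28 became 0.39 (adjusted p = 0.117) without treatment and 0.15 (adjusted p = 0.59) with etoposide, CBX3 became -0.05 (adjusted p = 0.833) and 0.09 (adjusted p = 0.686), SUV39H1 with etoposide became 0.57 (adjusted p = 0.0757), and EHMT1 without treatment became -0.27 (adjusted p = 0.146). The SUV39H1 difference was also lost without DAXX_KO etoposide replicate 1 (0.65, adjusted p = 0.0514). Each series had its own WT libraries, and what else differed between the series was not tested.

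**Figure D5:**
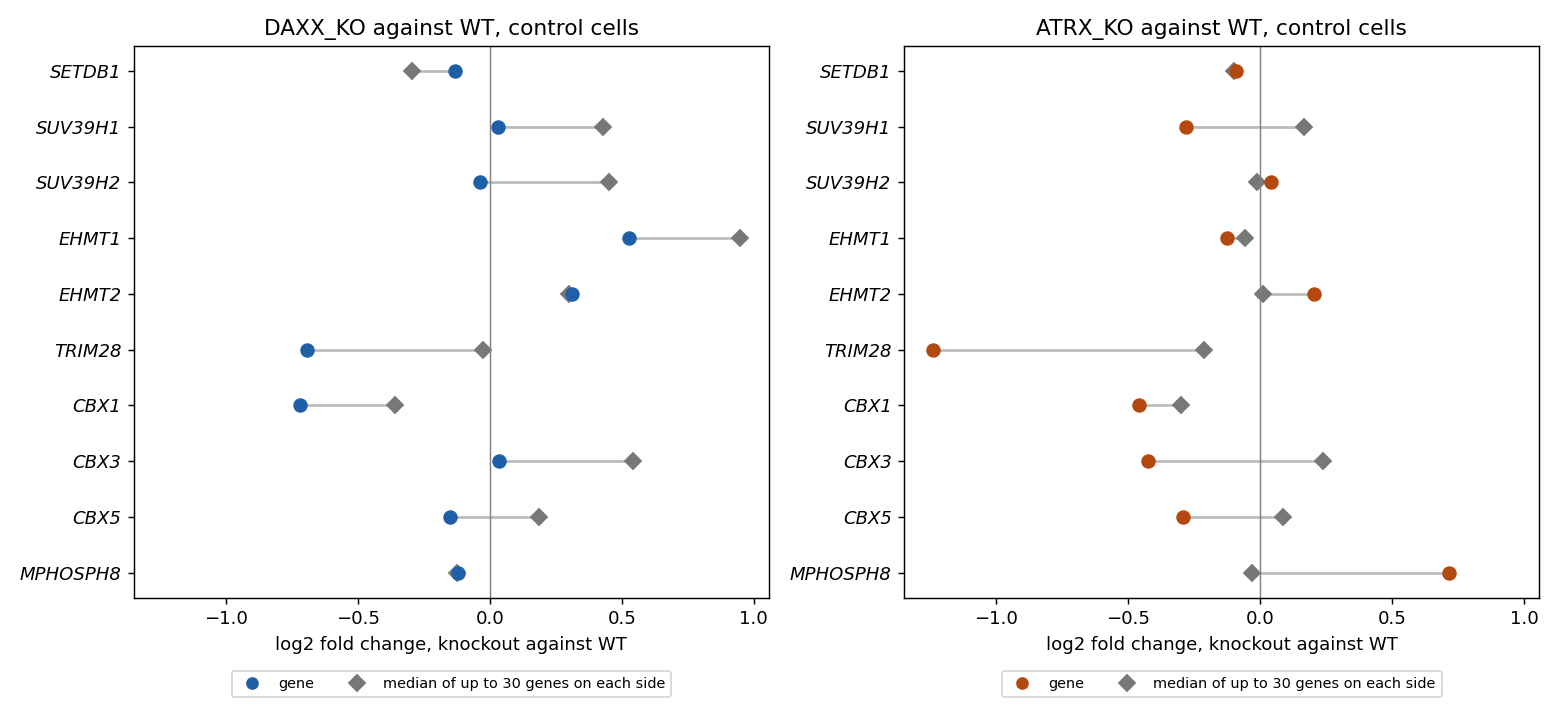
Log2 fold change in untreated DAXX_KO (left) and ATRX_KO (right) against WT for each gene (circle) and the median of up to 30 tested genes on each side of it on the chromosome (diamond). The neighbours of EHMT1 and CBX3 lie at 0.95 and 0.54 in DAXX_KO, while those of TRIM28 lie at -0.03 and -0.21 and those of MPHOSPH8 at -0.12 and -0.03 in DAXX_KO and ATRX_KO in turn.

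The 250 bases before the annotated starts were read for 9 of the 10 genes, which had 13 starts in all, from the RefSeq promoter table of GRCh38.p14. Each window was searched on both strands for the site of the cell cycle factor E2F (TTTCGCGC or TTTGGCGC), the cell cycle genes homology region CHR (TTTGAA), a DNA element, and the CCAAT box (CCAAT). Of the 13 windows 0 held the E2F letters and 0 the CHR letters, which occur in 0.968% and 13.3% of the 35116 windows of the table. The CCAAT letters were in 5 of the 13 windows, of CBX5, SUV39H1 and MPHOSPH8, against 32% of all windows. Of the 3 windows of CBX5, 2 overlap and hold the same box. The windows shown hold a CCAAT box and share no long stretch with annotated transcript sequences, which lack introns. Introns were not checked. The windows shown for CBX5 and SUV39H1 lie downstream of another annotated start of the same gene, so they can lie within an intron. The 3 windows shown set 2 genes that fell with etoposide in both series beside 1 that did not. Each is given 5′ to 3′ on the strand of its gene, with CCAAT or its reverse complement in capitals.
CBX5, chr12:54259587-54259836, minus strand, GRCh38.p14: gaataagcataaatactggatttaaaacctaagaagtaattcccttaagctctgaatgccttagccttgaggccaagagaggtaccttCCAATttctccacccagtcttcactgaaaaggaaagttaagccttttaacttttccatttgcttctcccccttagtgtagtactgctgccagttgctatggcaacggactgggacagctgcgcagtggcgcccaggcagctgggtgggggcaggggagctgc
SUV39H1, chrX:48696484-48696733, plus strand, GRCh38.p14: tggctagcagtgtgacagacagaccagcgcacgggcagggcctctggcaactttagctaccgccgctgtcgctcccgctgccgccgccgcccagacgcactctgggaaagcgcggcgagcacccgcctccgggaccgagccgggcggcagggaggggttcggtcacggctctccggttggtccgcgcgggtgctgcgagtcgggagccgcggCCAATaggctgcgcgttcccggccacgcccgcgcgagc
MPHOSPH8, chr13:19633409-19633658, plus strand, GRCh38.p14: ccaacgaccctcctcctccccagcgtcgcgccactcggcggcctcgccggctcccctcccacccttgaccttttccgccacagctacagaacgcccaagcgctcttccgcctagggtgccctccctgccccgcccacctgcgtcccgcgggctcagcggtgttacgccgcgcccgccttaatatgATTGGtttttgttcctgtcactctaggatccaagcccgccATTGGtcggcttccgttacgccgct

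The box began 162 bases before the start in CBX5, 38 bases in SUV39H1, and 65 and 25 bases in MPHOSPH8. A match of letters is a description and not a binding site. The CCAAT letters were found both in genes that fell with etoposide and in MPHOSPH8, and were not found in the windows of CBX1, CBX3, EHMT1, EHMT2, SUV39H2 and SETDB1 or in a further window of SUV39H1.

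Other genes of the pathway were taken from a list of 31 partners, further methyltransferases and demethylases of H3K9, of which 29 were tested in both series. ATF7IP2 had at most 9 counts in a library and was not tested, and UHRF1 was not analysed here. In untreated DAXX_KO 11 of the 29 were higher and 6 lower, and in untreated ATRX_KO 8 were higher and 2 lower, beside 26.7% and 26.6% of all genes in DAXX_KO and 20.8% and 21% in ATRX_KO. With etoposide 18 of the 29 were lower (30.6% of all genes) and 4 higher (29.6%) in WT of the DAXX series, and 16 were lower (29.8%) and 5 higher (31.7%) in WT of the other series. In DAXX_KO 14 were lower (27.8%) and 7 higher (26.8%), and in ATRX_KO 13 were lower (25.2%) and 4 higher (24.3%).

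LRIF1, which encodes an HP1 ligand, rose in both knockouts, from 10.5 ± 2.05 to 30.2 ± 4.23 CPM in DAXX_KO (log2 fold change 1.52 ± 0.16, adjusted p = 1.19e-07) and from 6.64 ± 0.78 to 18.5 ± 0.99 CPM in ATRX_KO (1.48 ± 0.12, adjusted p = 5.98e-08). Its ATRX_KO value centred on neighbouring genes was 0.85 (adjusted p = 4.77e-05). KDM7A, an H3K9 and H3K27 demethylase gene, rose from 1.58 ± 0.17 to 4.50 ± 0.70 CPM in DAXX_KO (2.83-fold, adjusted p = 0.000152) and from 0.70 ± 0.44 to 2.36 ± 1.02 CPM in ATRX_KO (1.77 ± 0.43, adjusted p = 0.00347). Libraries of the knockouts lay above those of WT for both genes. JMJD1C, of the demethylase family of KDM3A, fell in DAXX_KO from 77.6 ± 2.99 to 41.3 ± 1.21 CPM (-0.91 ± 0.08, adjusted p = 7.62e-09). In untreated ATRX_KO it went the other way, from 73.5 ± 6.31 to 94.0 ± 9.56 CPM, without overlap of the libraries. KDM4D, at 13 counts or fewer in the untreated libraries of the DAXX series, fell in DAXX_KO with overlap (-1.64 ± 0.61, adjusted p = 0.0301), a call lost in 4 of the 6 fits that left out 1 library.

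In ATRX_KO the chromatin assembly factor gene CHAF1B fell from 23.6 ± 2.50 to 12.9 ± 1.15 CPM (-0.87 ± 0.13, adjusted p = 3.29e-05), and WIZ, whose product joins EHMT1 and EHMT2, fell from 74.9 ± 2.03 to 61.6 ± 2.79 CPM (-0.28 ± 0.08, adjusted p = 0.0112), a call lost without WT control replicate 1 (adjusted p = 0.0508). The centred value of CHAF1B was -0.27 (adjusted p = 0.11). With etoposide in WT, KDM7A rose by 2.28 ± 0.26 log2 units in the DAXX series and 3.19 ± 0.40 for the ATRX series (adjusted p = 3.26e-07 and 2.49e-06). These rises of KDM7A started from the low counts given above. The H3K9 demethylase gene KDM4B rose by 1.40 ± 0.11 and 1.27 ± 0.08 log2 units in turn (adjusted p = 8.71e-10 and 4.24e-10).

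Within this list the largest falls in WT were those of CHAF1A, the HP1-binding subunit of chromatin assembly factor 1, at -1.90 ± 0.09 in the DAXX series and -1.73 ± 0.09 for the ATRX series (adjusted p = 1.39e-12 and 4.41e-11). DNMT1, the maintenance DNA methyltransferase, followed in the DAXX series at -1.47 ± 0.11 (adjusted p = 5.57e-10), and PHF2, an H3K9 demethylase gene, in the ATRX series at -1.54 ± 0.14 (adjusted p = 4.22e-08).

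As a description, the genes with the most similar profile over the 24 libraries were found by Pearson correlation of log2 CPM among genes with a mean of at least 10 CPM. These libraries share 8 groups, so such correlations follow the groups. CBX5 ran closest to PRR11 (r = 0.988) and KIF4A (0.984), CBX1 to DHX9 (0.985) and SGO2 (0.982), and SUV39H1 to TPX2 (0.965) and DBF4 (0.959). CBX3 ran closest to ITGB1 (0.978) and CD59 (0.973), EHMT1 to GNAQ (0.976) and MCUB (0.975), and TRIM28 to ARHGDIA (0.962) and KCNMA1 (0.955). MPHOSPH8 was nearest to CTTNBP2NL (0.937) and UBXN7 (0.884), EHMT2 to CAMKK2 (0.932) and MYO5A (0.926), and SUV39H2 to FJX1 (0.895) and CENPC (0.894). SETDB1 had the weakest neighbours, DHX37 (0.731) and TENT4B (0.717).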

How the data were processed

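Total RNA of 24 U87-T libraries was made into QuantSeq 3′ mRNA libraries and sequenced single-end. Reads were aligned by the authors to hg19 (STAR), and RSEM with Ensembl gene models of GRCh37 gave the deposited estimated counts, which are whole numbers without normalization. Strand settings are not given in the sources used here. Replicates were 3 libraries per group, which the study describes in general terms as biological. The labels do not say whether they were separate cultures, so p-values measure the spread between these libraries, which may be partly technical. Replicate pairs differed by more than counting error (chi-square per degree of freedom 2.16 to 17.1).

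Gene IDs were matched to GENCODE release 44 on GRCh37 (55501 of 57736 IDs, 98.8% of the counts). The tests were run in edgeR 4.0.16 (R 4.3.3). Genes were kept by filterByExpr (minimum count 10, minimum total 15), libraries were scaled by TMM (factors 0.939 to 1.10), the 12 libraries of each series were fitted as 4 groups by the quasi-likelihood test, and p-values were adjusted by Benjamini-Hochberg over all genes tested (FDR 0.05). The 2 differences between knockouts used all 24 libraries. Common biological coefficients of variation were 0.0825 (DAXX series) and 0.106 (ATRX series). Standard errors were the log2 fold change divided by the square root of the F statistic, and 95% intervals used the normal approximation. The genes described, the wider list, the proliferation list and the alternatives were chosen with earlier results of these data known, and they are not independent evidence. All 10 genes were named. Of the wider list, up to 2 called genes with the largest rise and up to 2 with the largest fall were named in the untreated comparison of each knockout and in each WT response, and for each of the 10 genes the 2 most correlated genes were named.

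Alternatives were the DESeq2 1.42.0 Wald test, RLE size factors, library totals alone, no filter, at least 10 counts in every library, a replicate block, centring each library's level on the median of up to 30 neighbouring genes per side, all 24 libraries in one model, only the compared groups, and leaving out each library. Libraries with the same replicate number were not treated as pairs, since the correlation of their deviations ran from -0.216 to 0.0487 over 36 pairs. On simulated counts with 200 genes changed 2-fold, 152 were recovered for DAXX_KO (15247 genes, 4 false calls) and 143 for ATRX_KO (16371 genes, 8 false calls). In the data, untreated DAXX_KO had 4078 genes called higher and 4063 lower. The simulation therefore does not measure false calls where so many genes change. Figures were drawn with matplotlib 3.10.9. Columns of other samples left out: 0.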

Additional observations from a re-analysis of the deposited data

Results flagged for a closer look

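Both interactions of CBX3 are listed because its etoposide response differed between genotypes by a test of the difference itself, by 1.173 log2 units in the DAXX series (adjusted p = 1.81e-06) and 1.064 in the ATRX series (adjusted p = 0.000102). The other results are listed because the knockout effects differed from each other, as the effect of DAXX_KO minus that of ATRX_KO. Without treatment this difference was 0.4651 for CBX3 (adjusted p = 0.00737), 0.6553 for EHMT1 (adjusted p = 0.000381), 0.5497 for TRIM28 (adjusted p = 0.00842) and -0.8318 for MPHOSPH8 (adjusted p = 0.00028). With etoposide it was 0.55 for CBX3 (adjusted p = 0.00229), 0.5785 for TRIM28 (adjusted p = 0.00572), 0.7918 for SUV39H1 (adjusted p = 0.0125) and -1.091 for MPHOSPH8 (adjusted p = 9.16e-06), all by edgeR's quasi-likelihood test. Groups of 3 libraries are too small for a check of single outlying libraries.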

How the results depend on the processing

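Of 97 gene values, 95 kept their direction and their side of the threshold with DESeq2, 95 with RLE size factors, 95 with a replicate block, 94 without a filter on low counts, 90 with library totals alone and 70 when centred on neighbouring genes. The replicate block changed no count of called genes by over 1.5 times, and weakened CBX5 in untreated DAXX_KO (-0.1495, adjusted p = 0.0689) and MPHOSPH8 in DAXX_KO against WT with etoposide (-0.2789, adjusted p = 0.0511). The count of called genes in untreated DAXX_KO was 5, and 3 without a filter on low counts, and leaving out 1 library gave 3 to 4, with 3 without WT control replicate 2 or DAXX_KO control replicate 3. The count of interactions in the DAXX series was 1, 2 when centred, and 1 to 2 when 1 library was left out. The untreated difference between knockouts went from 4 genes to 1 when centred.

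Centring turned the direction of EHMT1 (-0.3524), EHMT2 (-0.04349) and CBX3 (-0.5652) in untreated DAXX_KO, of TRIM28 with etoposide in WT of the DAXX series (-0.3075) and in DAXX_KO (-0.2412), of EHMT1 (-0.6542) and CBX1 (0.02388) in DAXX_KO against WT with etoposide, of EHMT1 (-0.272) and CBX3 (-0.05244) in the untreated difference, and of EHMT1 (-0.5777) in the treated one. In untreated DAXX_KO, CBX5 became 0.03649 with library totals alone, and CBX3, not called, became -0.001889 with DESeq2, -0.001885 with RLE size factors and -0.005794 to 0.06204 when 1 library was left out. With library totals alone CBX3 was called higher in untreated DAXX_KO, at 0.2222 (adjusted p = 0.0213). Values without a call also turned for TRIM28 in the WT response of the ATRX series (0.01296 with at least 10 counts in every library) and for MPHOSPH8 there (-0.04294 to 0.101 when 1 library was left out). The cause was not tested.

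Over all genes, library totals alone moved the share of higher genes among those called from 50.1% to 66.2% in untreated DAXX_KO (median of all genes 0.20), from 59.1% to 36.8% in the DAXX interaction, from 50.1% to 60.2% in ATRX_KO against WT with etoposide (median 0.11) and from 49.7% to 62.7% in the untreated difference (median 0.12). Among the 10 genes depth limits SUV39H2 most, with 16 counts in its lowest library. Of the wider list, KDM4D went down to 1 count in untreated DAXX_KO and KDM7A to 3 counts in untreated WT of the ATRX series.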
